A study of Bos taurus with 23 samples.

Results

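The comparison set 4 arrays of bovine 8-cell embryos against 4 arrays of earlier embryos, 2 of the 2-cell and 2 of the 4-cell stage, and covered every probe set of the array that is not a control. These 8 arrays are part of a series of 23 arrays that runs from oocytes to blastocysts. All 3 groups were in vivo embryos of cows inseminated with semen of 1 bull, flushed from the oviducts of 24 cows between days 1 and 4 after insemination, and each array held poly(A)+ RNA of a pool of 10 embryos. The labels name no transgene, allele or agent for any of the groups, and only embryos that looked intact were pooled. The collection text describes the 8-cell group as 8- to 16-cell embryos. The labels call the arrays biological replicates but do not say whether pools shared donor cows. The limma p values rest on the spread between arrays of a group, estimated over all 23 arrays and not from these 8 alone. Stage cannot be told apart from the day of collection. The early embryos are given below in the order 2-cell array 1, 2-cell array 2, 4-cell array 1, 4-cell array 2, and the 8-cell embryos in the order of arrays 1 to 4.

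A mammalian embryo starts with messenger RNA that the oocyte made and stored. Its own genes stay largely silent through the first cleavages, and in cattle the main wave of transcription from the embryonic genome begins at about the 8-cell stage, while the stored maternal messages are shortened at their poly(A) tails and degraded. The comparison asked which transcripts stood higher or lower once that stage had been reached. Values are GCRMA expression values on a log2 scale, where 1 unit is a doubling, and a level of 4 or less was treated as not told from background. Arrays were normalized to a common distribution, so every rise and fall is relative to the other transcripts on the array and says nothing of the amount of RNA per embryo. Whole embryos were pooled, so a change in the share of cells that hold a transcript and a change in RNA per cell cannot be told apart. Because the RNA was poly(A)+, a change in tail length and a change in transcript amount cannot be told apart either.

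Most of the measurable transcriptome differed between the groups. Of 14571 probe sets tested, 10118 (69.4%) passed the test, limma with a Benjamini-Hochberg adjusted p under 0.05. Of these 4780 (32.8%) rose and 5338 (36.6%) fell in the 8-cell embryos. In 4292 probe sets (29.5%) all 4 8-cell arrays lay above all 4 early arrays, and in 4982 (34.2%) all lay below. The median size of the change was 2.53 in the probe sets that rose and 2.59 in those that fell. A difference of 6 or more, which is 64-fold, was found in 396 that rose and 208 that fell. By gene, each taken at its probe set with the highest mean over the 23 arrays, 5031 of 7081 genes (71%) passed, 2408 (34%) up and 2623 (37%) down, and the median difference over all genes tested was -0.05. These shares are the background against which the counts of each gene group below are read.

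**Figure D1:**
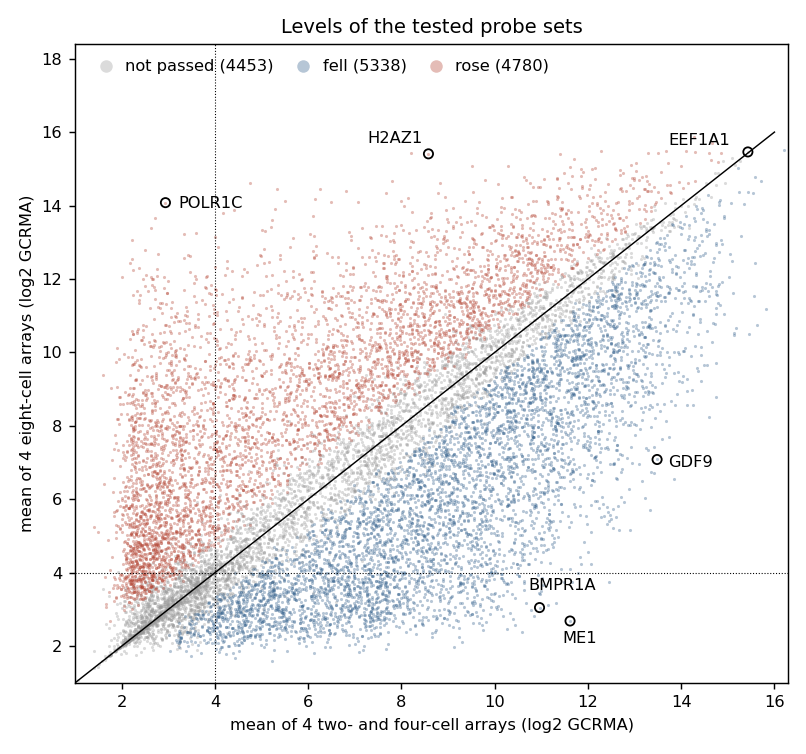
Mean log2 GCRMA value of each of the 14571 tested probe sets on the 4 two- and four-cell arrays (horizontal axis) and on the 4 eight-cell arrays (vertical axis), with the 4780 that rose in red, the 5338 that fell in blue and the others in grey; dotted lines mark the level of 4, and the diagonal marks equal levels. Named points lie far from the diagonal, except EEF1A1, which stood at 15.43 in the early and 15.46 in the 8-cell embryos.

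Few probe sets passed between the early stages. Between the 4-cell and the 2-cell arrays 2 probe sets (0.0137%) passed in limma, 1 up and 1 down (0.00686% each), while 292 had an unadjusted p under 0.05. With 1 array left out this count of 2 became 0 when the first array of either stage was dropped, 43 when 2-cell array 2 was dropped and 84 when 4-cell array 2 was. Against the 2-cell arrays alone 9284 probe sets (63.7%) passed, 4324 (29.7%) up and 4960 (34%) down. Against the 4-cell arrays alone 9236 (63.4%) passed, 4340 (29.8%) up and 4896 (33.6%) down. The balance of rises and falls depended on the scaling. With the arrays centred on the hybridisation spike-in controls the median difference of all tested probe sets moved from -0.03 to -0.53, and 3416 rose and 5818 fell, so that the share of calls that rose went from 47.2% to 37.0%. Spike-in centring moves the difference of every probe set by the same -0.50, so the medians of the gene lists below move by that amount too. With the arrays centred on the median of the tested probe sets 5215 rose and 4822 fell. The spike-in median was 9.97, 10.17, 10.06 and 11.05 on the early arrays and 11.06, 10.98, 10.66 and 10.56 on the 8-cell arrays, and its part in the result was not tested.

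The 8-cell arrays were not alike. Across probe sets arrays 1 and 4 correlated at 0.981 and arrays 2 and 3 at 0.961, but between these pairs the correlation was 0.899 to 0.910. The early arrays correlated at 0.964 to 0.990 with each other and at 0.564 to 0.653 with the 8-cell arrays. With 8-cell arrays 1 and 4 only, 4924 probe sets rose and 5048 fell. With 8-cell arrays 2 and 3 only, 4193 rose and 5112 fell.

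For each gene given below with its value on all 8 arrays and a fold change, no 8-cell array lay within the range of the early arrays. "At least" marks a fold for which arrays of the lower group stood below 4 and were set to 4.

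The 8 largest rises among transcripts already above background on all 8 arrays ran from 148-fold to 338-fold. PNRC1, a coactivator of nuclear receptors, stood at 5.62, 5.39, 5.18 and 4.68 on the early arrays and at 13.69, 13.77, 13.56 and 13.46 on the 8-cell arrays. The 8-cell values were close together and lay far above the early ones, and the level was 338-fold higher (log2 difference 8.40, SE 0.52, adjusted p = 2.97e-11). RNF11, a RING-type ubiquitin ligase, went from 7.74, 5.97, 6.18 and 5.12 to 14.55, 14.13, 14.49 and 14.67 and rose 296-fold (adjusted p = 1.64e-10). TKT, the transketolase of the pentose phosphate pathway, stood at 9.21, 7.11, 9.19 and 7.33 before and 15.66, 15.43, 15.09 and 15.49 after, 148-fold higher (adjusted p = 4.64e-12). The early arrays of TKT split into a higher first and a lower second array at each stage, and neither reached the 8-cell values. CCNL2, a cyclin linked to splicing, rose 175-fold, and RBBP6, a ubiquitin ligase that binds the retinoblastoma protein and takes part in 3′ end processing, rose 194-fold. PLPBP, a protein that binds vitamin B6 phosphate, rose 264-fold, the zinc finger protein ZNF131 154-fold and SELENOS, a selenoprotein of the endoplasmic reticulum, 152-fold.

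Other transcripts went from below background to high levels. POLR1C, a subunit shared by RNA polymerases I and III, lay at 3.61, 2.61, 2.98 and 2.55 on the early arrays and at 13.98, 14.21, 14.11 and 14.02 on the 8-cell arrays. This is at least 1081-fold higher (adjusted p = 6.3e-16), the highest bound among the named probe sets. MTHFD1L, an enzyme of mitochondrial folate metabolism, went from 3.08, 3.41, 3.48 and 3.35 to 13.02, 13.35, 13.30 and 13.20, at least 595-fold higher. FOLR3, annotated as a folate receptor, went from 3.0, 2.40, 2.24 and 2.36 to 11.98, 13.65, 13.63 and 11.94, at least 445-fold higher (adjusted p = 1.42e-13), with 8-cell arrays 2 and 3 above arrays 1 and 4. KLHL28 was at least 669.9-fold higher, the adhesion protein AMIGO2 at least 533-fold, the prion protein PRNP at least 407-fold and URGCP at least 372-fold. A probe set of ITPR1, the inositol trisphosphate receptor that releases calcium, was at least 808-fold higher, while the brightest probe set of that gene was already at 9.19 in the early embryos and rose 10.5-fold.

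The largest falls among transcripts that stayed above background included a secreted growth factor and a receptor of the oocyte. SYTL2, a synaptotagmin-like protein of vesicle exocytosis, stood at 12.86, 12.96, 12.70 and 13.08 on the early arrays and 4.93, 4.88, 5.58 and 5.27 on the 8-cell arrays, 213-fold lower (log2 difference -7.73, SE 0.33, adjusted p = 1.51e-13). KIT, the receptor for stem cell factor, stood at 12.17, 12.62, 12.19 and 12.15 and then 4.33, 4.67, 6.96 and 6.06, 109-fold lower (adjusted p = 9.05e-11). The 8-cell values of KIT spread over more than 2 units, and all lay below the early ones. INPP1, an inositol phosphatase, fell 145-fold, NME7, a protein of microtubule-organizing centres, 104-fold, WLS, the carrier that brings Wnt proteins to the cell surface, 102-fold, and ALG13, an enzyme of protein glycosylation, 97.5-fold. A probe set of PABPC1, the cytoplasmic poly(A)-binding protein, fell 134-fold, and another of its probe sets also fell. The brightest probe set of PABPC1 went the other way, from 13.01, 11.96, 13.18 and 12.71 to 14.77, 14.25, 14.15 and 14.70, so its probe sets disagree.

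Falls to below background were led by ME1, the cytosolic malic enzyme that supplies NADPH, which went from 11.50, 12.14, 11.01 and 11.82 to 2.59, 2.82, 2.75 and 2.58, at least 196-fold lower (adjusted p = 5.53e-16). BMPR1A, a receptor for bone morphogenetic proteins, went from 11.11, 11.08, 10.76 and 10.90 to 2.50, 2.76, 3.33 and 3.62, at least 125-fold lower (adjusted p = 6.61e-14). In both genes the lowest early array lay more than 7 units above the highest 8-cell array. The kinase STK10 was at least 102-fold lower. Among genes of vesicle traffic, VPS45, which acts in membrane fusion, was at least 72.5-fold lower, COG6 of the Golgi at least 61.0-fold and RAB27A of secretory vesicles at least 53.0-fold. PRICKLE1, a planar cell polarity protein, was at least 115-fold lower by one probe set, and its brightest probe set fell 60.9-fold. FRMD5 was at least 53.6-fold lower.

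**Figure D2:**
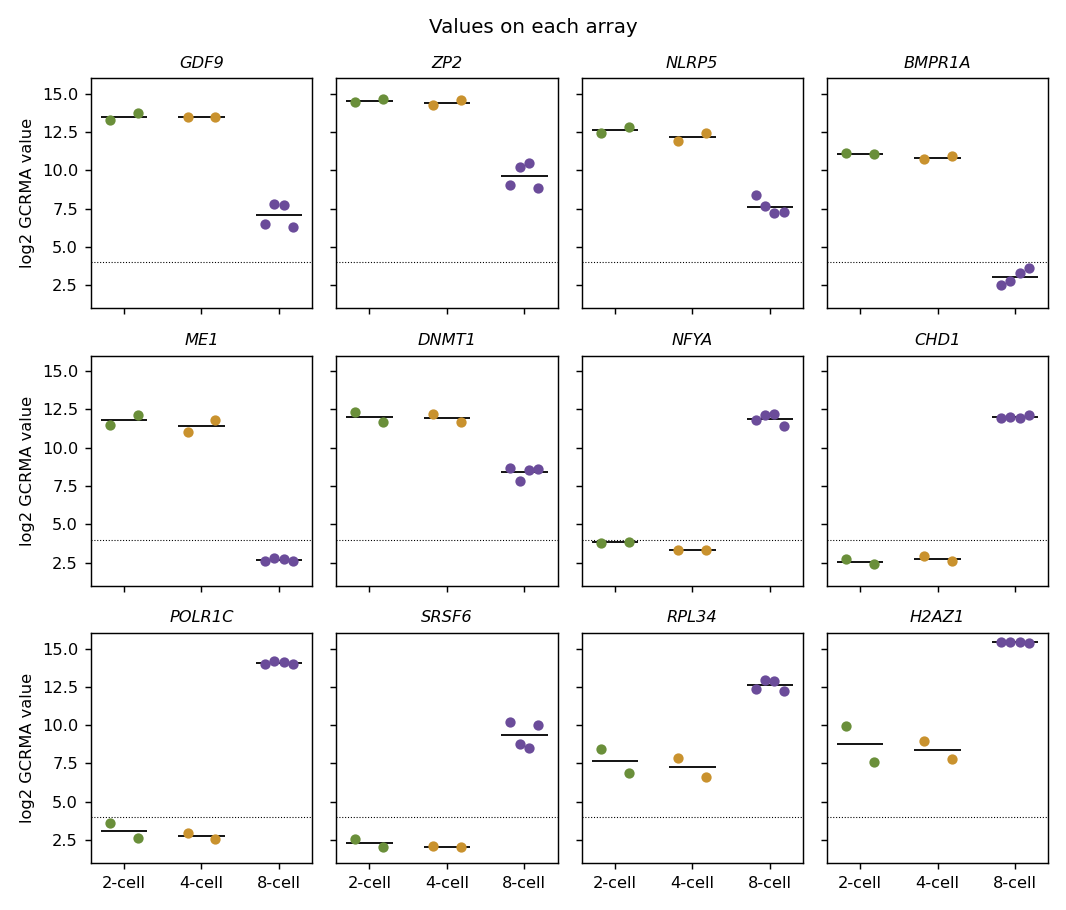
Log2 GCRMA value on each array for 12 genes (1 point per array, 2 arrays each of 2-cell and 4-cell and 4 of 8-cell embryos; horizontal bars are group means and the dotted line marks 4). GDF9, ZP2, NLRP5, BMPR1A, ME1 and DNMT1 were lower on all 8-cell arrays, and NFYA, CHD1, POLR1C, SRSF6, RPL34 and H2AZ1 were higher on all of them.

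The oocyte's own messages fell together. All 6 oocyte growth factor and zona pellucida genes on the array fell, against 37% of all genes, with a median of -4.63. GDF9, a growth factor that the oocyte secretes to its follicle cells, stood at 13.27, 13.72, 13.46 and 13.48 on the early arrays and 6.48, 7.77, 7.76 and 6.32 on the 8-cell arrays, 84.5-fold lower (adjusted p = 1.94e-11). Its close relative BMP15 stood at 13.48, 13.61, 13.71 and 13.59 and then at 6.94, 10.88, 11.32 and 7.55, 21.5-fold lower. BMP15 was 3 units or more higher on 8-cell arrays 2 and 3 than on arrays 1 and 4, and below the early arrays on all 4. Of the glycoproteins of the egg coat, ZP2 fell 28.6-fold, ZP4 14.5-fold and ZP3 6.76-fold. In the group of maternal-effect genes, whose products the egg needs for the first cleavages, 5 of 6 fell and none rose (median -3.85). NLRP5, a member of the subcortical maternal complex, went from 12.42, 12.84, 11.93 and 12.45 to 8.37, 7.69, 7.20 and 7.27, 27.4-fold lower (adjusted p = 1.14e-06). OOEP of the same complex fell 12.9-fold, UHRF1, which directs maintenance of DNA methylation, 16.7-fold, its relative UHRF2 5.25-fold, and KPNA7, an oocyte importin, 16.2-fold. The remaining member, GTSF1, stood at 9.06 ± 0.28 (SD, n = 4) in the early and 9.87 ± 0.75 (SD, n = 4) in the 8-cell embryos and did not pass (adjusted p = 0.241).

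Meiotic regulators were lower more often than higher, with 9 of 18 genes down and 3 up. MOS, the kinase that holds the egg in meiotic arrest, stood at 13.39, 13.52, 13.55 and 13.48 on the early arrays and 6.46, 10.65, 10.70 and 6.59 on the 8-cell arrays, 29.5-fold lower (adjusted p = 3.29e-06). Arrays 1 and 4 lay about 4 units below arrays 2 and 3. MSH5 of meiotic recombination fell at least 18.3-fold and the kinase AURKA 2.45-fold. The genes that rose were PLK4, which starts centriole duplication, by 4.30-fold, MAD2L1 of the spindle checkpoint by 2.31-fold and the meiotic cohesin STAG3 by 3.36-fold. MAD2L1 and STAG3 did not pass with spike-in centring (adjusted p = 0.0906 and 0.1). With that centring 1 of the 18 genes rose, PLK4.

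Genes that store or remove mRNA moved in both directions, 6 of 22 up (27.3%) and 8 down (36.4%), near the 34% and 37% of all genes. PARN, a poly(A)-specific ribonuclease, fell 13.0-fold. Of the CCR4-NOT deadenylase subunits CNOT6L fell 9.57-fold and CNOT7 2.34-fold, while CNOT6 rose 3.79-fold. ZFP36L1, which recruits that complex to AU-rich messages, went from 12.79, 13.13, 12.77 and 13.16 to 8.70, 9.21, 10.46 and 8.59, 13.2-fold lower (adjusted p = 1.11e-07). TUT7, an enzyme that tags mRNA tails with uridine, went from 9.19, 10.01, 9.09 and 9.80 to 14.72, 14.17, 13.93 and 14.69, 28.9-fold higher (adjusted p = 2.19e-09). Of the readers of methylated adenosine, YTHDF2 rose 11.6-fold and YTHDF1 fell 12.8-fold. With 8-cell arrays 1 and 4 only, or with arrays centred on the median of the tested probe sets, 10 of the 22 genes rose.

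Factors linked to activation of the embryonic genome were mostly higher. Of 26 tested genes 14 rose and 5 fell, against 34% and 37% of all genes, and the median was 0.77. CHD1, a chromatin remodeller of active genes, lay at 2.72, 2.42, 2.91 and 2.59 on the early arrays and 11.91, 11.98, 11.96 and 12.11 on the 8-cell arrays, at least 254-fold higher (adjusted p = 7.21e-17). NFYA, the DNA-binding subunit of the CCAAT-binding factor NF-Y, went from 3.80, 3.83, 3.31 and 3.3 to 11.81, 12.14, 12.21 and 11.41, at least 237-fold higher (adjusted p = 1.21e-14). The other NF-Y subunits differed from it. NFYC, already at a high level before, went from 12.18, 11.66, 11.90 and 11.92 to 6.29, 8.61, 9.21 and 7.12 and fell 17.3-fold. NFYB rose by 0.48 on the log2 scale with the main scaling (adjusted p = 0.0107) and stood at -0.022 with spike-in centring. MYC, a transcription factor of growth genes, went from 4.55, 2.52, 2.55 and 2.56 to 10.01, 10.99, 11.35 and 9.73, at least 83.2-fold higher (adjusted p = 1.18e-12). The heat shock factor HSF2 was at least 75.4-fold higher and TEAD4, the partner of YAP in the outer cells of later embryos, at least 28.3-fold higher. KLF4, KLF5 and YY1 rose 5.98-fold, 12.2-fold and 4.85-fold, although a second KLF5 probe set did not pass. EIF1AX, a translation initiation factor often used as a marker of bovine genome activation, rose 3.48-fold, from 13.11, 13.29, 12.70 and 12.70 to 14.57, 14.97, 14.69 and 14.75. CTCF, which shapes chromatin loops, differed by 0.64 (adjusted p = 0.0126) and did not pass with spike-in centring. With spike-in centring 9 of the 26 genes rose and 7 fell.

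The RNA polymerases did not move as units. Of 59 genes of RNA polymerase II, its general factors and Mediator 24 rose and 22 fell (40.7% and 37.3%), against 34% and 37% of all genes. The median of 0.40 turned to -0.10 with spike-in centring. The second largest subunit POLR2B went from 10.23, 10.28, 10.77 and 10.46 to 13.74, 13.90, 13.86 and 14.16, 11.2-fold higher, and POLR2L rose 27.6-fold, while POLR2J fell 8.18-fold. For the largest subunit, POLR2A, the brightest probe set rose 8.41-fold and another fell. TAF11 of TFIID went from 6.73, 7.25, 6.66 and 7.02 to 12.76, 13.12, 13.38 and 12.94, 70.3-fold higher (adjusted p = 2.5e-12). Of the elongation factors, ELL2 rose 30.4-fold and CDK9 4.42-fold, while ELL fell 36.2-fold. CDK7, the kinase of the general factor TFIIH, fell 6.33-fold. SUPT4H1, an elongation factor, lay at 2.56, 2.07, 7.50 and 4.89 on the early arrays and 11.96, 12.43, 12.61 and 12.18 on the 8-cell arrays, at least 146-fold higher. Its 4-cell arrays already stood above its 2-cell arrays, and it was the gene that rose between these stages, a call that was lost when the first array of either stage was left out, with the spread of the 8 arrays alone and with spike-in or median centring. Of 20 genes of RNA polymerases I and III 9 rose and 5 fell (median 0.82). Besides POLR1C, POLR3F rose at least 164-fold, from 2.74, 3.01, 2.92 and 2.76 to 11.29, 11.39, 11.81 and 10.92, POLR1F at least 71.1-fold and TAF1D at least 39.8-fold, and POLR1B fell 5.18-fold.

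Splicing genes were higher in 44 of 81 cases and lower in 16 (median 0.83). TRA2B, an SR-like splicing regulator, went from 8.49, 7.29, 8.26 and 7.17 to 14.53, 14.77, 14.87 and 14.55, 117-fold higher (adjusted p = 2.58e-12). PHF5A of the SF3b complex rose 85.2-fold, HNRNPAB 33.2-fold and the SR protein SRSF3 29.9-fold. SRSF6 went from below background, 2.57, 2.02, 2.09 and 2.06, to 10.23, 8.80, 8.49 and 9.99, at least 41.6-fold higher. Lower were CRNKL1, which fell 12.0-fold, and CDC5L, which fell 3.80-fold, both of the spliceosome core. Nuclear transport genes stood closer to the background with 19 of 52 up and 13 down, and their median of 0.23 turned to -0.27 with spike-in centring. Within the importin alpha family the members moved in opposite directions. KPNA4 went from 3.13, 2.92, 3.34 and 3.0 to 9.18, 9.10, 9.27 and 8.70, at least 33.4-fold higher. KPNA2 went from 14.55, 14.80, 14.78 and 14.89 to 10.39, 12.27, 12.87 and 10.81, 9.00-fold lower, as did the oocyte member KPNA7, given above. The SR protein importer TNPO3 rose 25.6-fold.

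**Figure D3:**
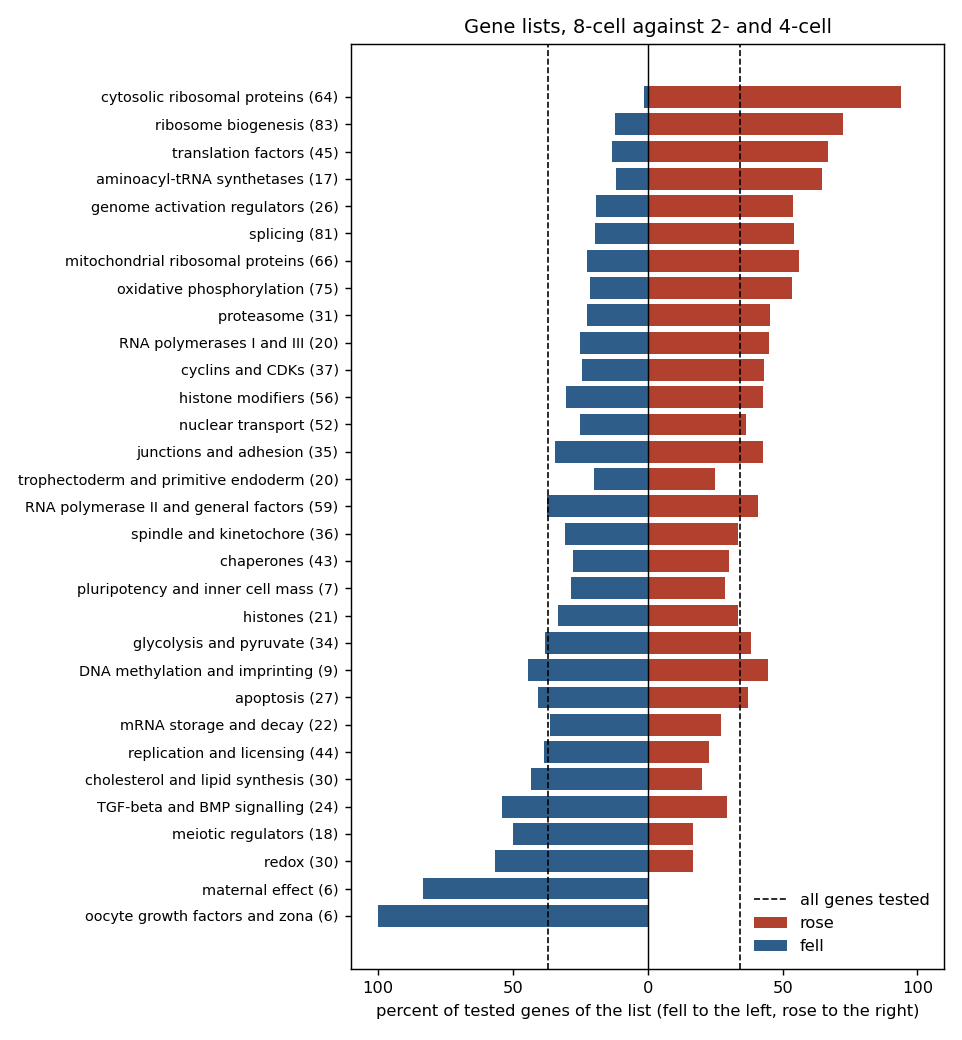
Percent of the tested genes of each list that rose (red, to the right) or fell (blue, to the left) in 8-cell against 2- and 4-cell embryos, with the number of tested genes in parentheses; dashed lines mark the shares over all genes tested, 34% up and 37% down. Cytosolic ribosomal proteins stand at the top with 60 of 64 up, and oocyte growth factors and zona genes at the bottom with 6 of 6 down.

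The broadest change in one direction was in genes for making ribosomes and proteins. Of 64 cytosolic ribosomal protein genes 60 rose, 1 fell and 3 did not pass, with a median of 2.37. RPL34 of the large subunit went from 8.43, 6.86, 7.87 and 6.61 to 12.34, 12.94, 12.85 and 12.24, 35.6-fold higher (adjusted p = 6.13e-11). RPL10A rose 32.9-fold, RPS9 of the small subunit 32.8-fold and RPL26 22.8-fold. Those that did not pass were RPS2, RPSA and RPL7A. RPS2 stood at 14.72 ± 0.10 and 14.88 ± 0.10 (SD, n = 4 each; adjusted p = 0.181) and RPSA at 14.15 ± 0.15 and 13.99 ± 0.39 (adjusted p = 0.441). RPL4 differed by 0.60 and did not pass with spike-in centring. The gene that fell was RPS19, near background at 4.11, 5.23, 4.95 and 5.46 and then 3.05, 3.54, 3.17 and 2.71, and its second probe set rose. With spike-in centring 50 of the 64 rose and 1 fell.

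Some early arrays stood apart on this list. 2-cell array 1 was above 2-cell array 2 in 55 of the 64 ribosomal protein genes and 4-cell array 1 above 4-cell array 2 in 40, against 6378 and 5929 of all 14571 probe sets. Both first arrays also carried leukocyte messages, given below, whose part in the result was not tested. Without these 2 arrays 59 of 64 rose, 1 fell and the median was 2.64.

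Ribosome assembly genes of the nucleolus rose in 60 of 83 cases and fell in 10 (median 1.98). KRR1, which processes the small subunit RNA, went from 2.31, 2.13, 3.26 and 2.35 to 12.16, 11.85, 12.07 and 12.38, at least 277-fold higher (adjusted p = 3.23e-14). NOP16 went from 6.39, 4.81, 5.84 and 3.29 to 12.82, 13.76, 13.91 and 12.78, at least 266-fold higher. MDN1, the giant ATPase that remodels the large subunit, rose at least 164-fold and GRWD1 83.6-fold. Among the defining nucleolar proteins fibrillarin (FBL) rose 10.3-fold and nucleolin (NCL) 4.35-fold. Factors of the last steps of large subunit assembly were among those that fell. SBDS went from 12.41, 12.71, 12.60 and 12.66 to 7.91, 7.85, 8.84 and 7.89, 22.2-fold lower (adjusted p = 4.58e-11). The export adaptor NMD3 fell 12.9-fold. Translation factors were up in 30 of 45 and down in 6 (median 1.55). EIF3A, the largest subunit of the eIF3 complex, went from 5.68, 2.30, 3.54 and 2.34 to 12.56, 12.79, 12.48 and 12.73, at least 298-fold higher. The scaffold EIF4G1 rose 78.5-fold and the release factor ETF1 32.5-fold. EIF4E3, a cap-binding protein, fell at least 23-fold, whereas the main cap-binding protein EIF4E stood at 12.72 ± 0.21 and 12.50 ± 0.25 (SD, n = 4 each; adjusted p = 0.267).

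Of 17 aminoacyl-tRNA synthetases 11 rose and 2 fell (median 1.23). QARS1 for glutamine went from 7.71, 6.06, 5.09 and 4.58 to 12.79, 11.37, 11.23 and 12.60, 70.3-fold higher, YARS1 for tyrosine rose 37.9-fold and GARS1 for glycine fell 9.10-fold. With spike-in centring 7 rose. Mitochondrial ribosomal proteins were up in 37 of 66 and down in 15 (median 1.26). MRPL12 went from 6.07, 5.39, 5.55 and 4.31 to 11.11, 11.23, 11.12 and 10.39, 49.6-fold higher, and MRPS34 rose at least 22.5-fold, while MRPL14 fell 13.4-fold. Oxidative phosphorylation had 40 of 75 genes up and 16 down (median 0.90). UQCR10 of complex III went from 7.69, 6.96, 6.16 and 6.13 to 11.98, 12.12, 12.30 and 11.88, 40.4-fold higher (adjusted p = 1.38e-11). Of complex I NDUFB2 rose 39.8-fold and the core subunit NDUFV1 24.4-fold, while its partner NDUFV2 fell 7.17-fold. ATP5IF1, the inhibitor of ATP synthase, fell 7.77-fold.

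Protein quality control gave a mixed picture. Of 31 proteasome genes 14 rose and 7 fell (median 0.63). PSMA1 of the core went from 4.31, 2.67, 5.49 and 2.79 to 11.58, 12.44, 12.51 and 11.63, at least 193-fold higher, the ATPase PSMC5 rose 10.7-fold and the assembly factor PSMD5 fell 7.17-fold. Of 43 chaperones 13 rose and 12 fell (30.2% and 27.9%), against 34% and 37% of all genes. Their median of 0.09 turned to -0.41 with spike-in centring, where 8 rose. DNAJB9 of the endoplasmic reticulum was at least 172-fold higher, at 3.31, 2.50, 7.65 and 2.57 before and 12.16, 12.30, 12.75 and 12.15 after, with 4-cell array 1 above the other early arrays. CCT6A of the cytosolic chaperonin was at least 184-fold higher. HSP90AB1, a cytosolic heat shock protein, went from 11.57, 11.72, 11.50 and 11.52 to 6.73, 7.51, 7.30 and 6.27, 24.7-fold lower (adjusted p = 1.51e-12). HSPD1, the mitochondrial chaperonin, did not pass (adjusted p = 0.82), but its 8-cell arrays stood at 12.18, 13.74, 13.59 and 12.30 around early values of 13.06, 13.04, 12.68 and 12.72, so that arrays 1 and 4 lay below and arrays 2 and 3 above.

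The enzymes of DNA methylation on the list fell. The maintenance enzyme DNMT1 went from 12.36, 11.69, 12.18 and 11.65 to 8.68, 7.83, 8.54 and 8.61, 11.8-fold lower (adjusted p = 2.33e-09). DNMT3B, a de novo methyltransferase, went from 6.57, 6.34, 5.91 and 6.63 to below background, 1.60, 3.03, 1.63 and 1.60, at least 5.15-fold lower, and DNMT3A fell at least 7.50-fold. With UHRF1 these were the 4 of 9 genes of DNA methylation and imprinting that fell. Another 4 rose, GADD45A, TRIM28, MBD1 and MBD3, with MBD3 of the NuRD complex at 9.17-fold, and with spike-in centring 1 rose. Among 56 histone modifiers and remodellers 24 rose and 17 fell, and the median of 0.37 turned to -0.13 with spike-in centring. KDM6A, which removes methylation from lysine 27 of histone H3, went from below background, 2.95, 2.69, 2.54 and 2.55, to 9.21, 9.94, 10.11 and 9.28, at least 49.8-fold higher. The acetyltransferase KAT2B rose 56.3-fold and the heterochromatin protein CBX3 24.0-fold. SMARCE1 of the BAF complex fell 16.0-fold, HDAC7 11.7-fold and HDAC3 8.44-fold. SMARCA4, the ATPase of BAF, did not pass (adjusted p = 0.72), with 8-cell arrays 1 and 4 at 12.34 and 12.31 and arrays 2 and 3 at 11.40 and 10.53.

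Of 21 histones and histone chaperones 7 rose and 7 fell (33.3% each, near the shares of all genes). The variant H2AZ1, which marks promoters, went from 9.97, 7.57, 8.96 and 7.81 to 15.42, 15.40, 15.45 and 15.36, 114-fold higher (adjusted p = 3.31e-09). MACROH2A1 rose 93.3-fold, from 5.58, 4.00, 5.84 and 4.70 to 11.51, 11.67, 11.51 and 11.61, and the replacement histone gene H3-3B 2.60-fold. H2AC6, a canonical H2A gene, rose at least 16.1-fold. SLBP, which binds the 3′ ends of histone messages, fell 3.65-fold, and H2BC19 fell 6.60-fold. Histone genes lie in families of near-identical copies, so a probe set can read more than 1 of them.

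Of 44 replication genes 17 fell, a share near that of all genes, and 10 rose, and the median was 0.01 (-0.49 with spike-in centring). POLA1, the catalytic subunit of DNA polymerase alpha, went from 9.31, 8.80, 9.33 and 8.70 to 4.75, 2.92, 2.09 and 5.29, at least 23.1-fold lower. PRIM2, a primase subunit of the same complex, went from 12.15, 12.49, 12.26 and 12.19 to 7.55, 6.75, 7.69 and 7.58, 29.4-fold lower. ORC5 of the origin recognition complex fell 38.0-fold. DBF4, the activator of the CDC7 kinase, went from 6.72, 6.80, 7.06 and 6.98 to 12.04, 12.00, 12.29 and 12.16, 37.6-fold higher (adjusted p = 1.38e-11), the flap endonuclease FEN1 rose 23.4-fold and the helicase subunit MCM7 4.41-fold. Of 37 cyclins, kinases and inhibitors 16 rose and 9 fell. The E cyclins, which drive entry into S phase, went up. CCNE1 went from 7.73, 7.33, 7.36 and 7.32 to 11.96, 12.06, 12.34 and 11.91, 24.8-fold higher. CCNE2 went from 3.20, 3.22, 2.94 and 3.01 to 10.40, 8.45, 7.74 and 10.47, at least 38.4-fold higher. CDK1 rose 14.7-fold and CDK4 at least 21.7-fold. The mitotic cyclin CCNB2 fell 4.79-fold, while CCNB1 stood at 14.93 ± 0.04 and 14.62 ± 0.30 (SD, n = 4 each; adjusted p = 0.0782). The retinoblastoma gene RB1 went from 10.21, 9.89, 9.96 and 9.81 to 6.47, 4.29, 4.22 and 7.58, 20.1-fold lower. BTG3, an antiproliferative factor, rose at least 69.8-fold. Spindle and kinetochore genes were near the background, with 12 of 36 up and 11 down. MIS12 of the kinetochore rose 75.7-fold, and NUSAP1, which bundles spindle microtubules, fell 8.43-fold.

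TGF-beta and BMP signalling genes were lower in 13 of 24 cases and higher in 7, with a median of -1.67. Among them were GDF9 and BMP15, which the oocyte list also holds. Of 8 receptors 6 fell, BMPR1A, BMPR1B, BMPR2, ACVR1, TGFBR1 and TGFBR2, and 1 rose, ACVR2B. Of 4 SMAD transducers SMAD2, SMAD3 and SMAD5 fell, and SMAD4 did not pass. The receptor TGFBR1 went from 6.28, 7.15, 6.21 and 6.55 to 2.17, 2.23, 2.21 and 2.67, at least 5.86-fold lower. SMAD5, which carries BMP signals, went from 7.23, 7.49, 5.57 and 7.34 to 2.17, 2.42, 3.47 and 2.14, at least 7.50-fold lower. ACVR2B, an activin receptor, rose 21-fold and the ligand BMP4 10.1-fold. The ID genes, targets of BMP signalling that block DNA binding by helix-loop-helix factors, went in opposite directions. ID3 went from 13.25, 13.67, 13.21 and 13.58 to 6.29, 10.12, 9.89 and 6.55, 37.1-fold lower (adjusted p = 2.36e-07). ID1 went from 4.27, 4.26, 3.79 and 4.09 to 9.76, 8.05, 8.68 and 9.70, at least 29.6-fold higher (adjusted p = 1.37e-08). ID2 rose at least 47.2-fold, but its early arrays differed, at 8.48, 2.78, 9.12 and 3.04, with both first arrays high. With 8-cell arrays 2 and 3 only, 4 of the 24 genes rose.

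Redox genes were lower in 17 of 30 cases and higher in 5 (median -1.60). NQO1, a quinone reductase, went from 10.11, 10.62, 10.09 and 10.78 to 3.13, 5.29, 5.07 and 3.57, at least 56.1-fold lower (adjusted p = 4.3e-11). The peroxiredoxin PRDX2 went from 13.66, 14.13, 13.36 and 13.76 to 10.22, 8.60, 9.79 and 9.99, 16.9-fold lower. PRDX6 fell 15.5-fold and PRDX1 7.75-fold. GLRX2, a mitochondrial glutaredoxin, rose 41.6-fold and mitochondrial thioredoxin TXN2 41.3-fold. KEAP1, the sensor that targets the redox factor NRF2 for degradation, rose 8.30-fold. Cholesterol and lipid synthesis had 13 of 30 genes down and 6 up (median -0.69). ACSL3, which activates fatty acids, went from 12.41, 12.79, 11.95 and 12.79 to 6.27, 3.64, 4.52 and 7.88, at least 113-fold lower, INSIG1, a brake of sterol synthesis, fell 48.5-fold and the sterol enzyme HMGCS1 11.3-fold. ELOVL6, which lengthens fatty acids, went from 2.92, 2.86, 2.82 and 2.98 to 9.64, 9.84, 10.78 and 10.73, at least 75.9-fold higher, and SQLE rose 9.74-fold.

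Glycolysis and pyruvate genes were split evenly, 13 of 34 up and 13 down (38.2% each), near the 34% and 37% of all genes. The fructose transporter SLC2A5 went from 2.87, 2.98, 2.90 and 3.12 to 12.23, 11.04, 11.22 and 11.96, at least 195-fold higher (adjusted p = 3.43e-14). PC, the carboxylase of pyruvate, went from 2.75, 1.97, 1.79 and 1.70 to 10.69, 9.84, 9.07 and 10.21, at least 62.0-fold higher. LDHC, a lactate dehydrogenase of germ cells, went from 10.25, 10.44, 10.45 and 9.91 to 3.35, 3.36, 5.31 and 2.86, at least 61.2-fold lower. DLAT of the pyruvate dehydrogenase complex fell at least 26.5-fold, while its partner PDHB rose 20.6-fold. For LDHA the brightest probe set fell 14.6-fold and its other probe sets rose. GAPDH, often used as a reference gene, went from 12.04, 12.03, 12.37 and 11.94 to 8.11, 9.69, 9.92 and 7.65, 9.54-fold lower (adjusted p = 2.6e-05), with arrays 2 and 3 above arrays 1 and 4. Of 27 apoptosis genes 10 rose and 11 fell (37.0% and 40.7%, near the shares of all genes). The caspase inhibitor XIAP went from 8.95, 9.92, 9.19 and 9.52 to 2.81, 3.73, 2.59 and 4.10, at least 41.4-fold lower. DIABLO, the mitochondrial protein that blocks it, went from 5.56, 3.07, 5.72 and 4.00 to 11.58, 12.40, 12.55 and 11.73, at least 152-fold higher. BIRC3 rose 19.4-fold and BCL2 fell 2.89-fold.

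Genes of the first cell lineages, which separate later, were partly present. Of 7 pluripotency and inner cell mass genes 2 rose, KLF4 and KLF5, and 2 fell (28.6% each), against 34% and 37% of all genes. The pluripotency factor POU5F1 stood at 9.32 ± 0.22 in the early and 8.75 ± 1.13 in the 8-cell embryos (SD, n = 4 each; adjusted p = 0.22) and SOX2 at 10.31 ± 0.53 and 9.98 ± 0.57 (adjusted p = 0.466). STAT3, the transducer of LIF signalling, went from 12.93, 14.28, 12.07 and 14.36 to 8.75, 5.24, 7.59 and 8.17, 62.8-fold lower. The secreted phosphoprotein SPP1 fell at least 59.8-fold. Of 20 trophectoderm and primitive endoderm genes 5 rose and 4 fell (25% and 20%), both below the shares of all genes. GATA6, a factor of primitive endoderm, went from 3.20, 3.25, 4.13 and 3.28 to 11.99, 12.05, 12.00 and 12.69, at least 284-fold higher (adjusted p = 3.89e-09). The growth factor receptor PDGFRA of the same lineage went from 2.83, 2.85, 2.86 and 2.92 to 9.71, 7.93, 8.25 and 9.46, at least 28.6-fold higher. The water and glycerol channel AQP3 rose 22.5-fold. TFAP2A of trophectoderm and interferon tau (IFNT2) were below 4 on all 8 arrays.

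Junction and adhesion genes changed in both directions, 15 of 35 up (42.9%) and 12 down (34.3%), against 34% and 37% of all genes. CLDN6, a tight junction claudin, went from 3.10, 3.17, 4.19 and 3.16 to 10.29, 11.68, 11.35 and 11.20, at least 136-fold higher. The desmosomal cadherin DSC2 went from 2.44, 2.45, 2.43 and 2.48 to 11.15, 9.63, 9.75 and 11.12, at least 85.2-fold higher. The tight junction receptor F11R rose 53.9-fold. The gap junction protein GJC1 went from 10.17, 10.25, 10.48 and 10.06 to 2.95, 2.63, 5.25 and 3.94, at least 60.8-fold lower. P-cadherin (CDH3) fell at least 37.4-fold and alpha-catenin (CTNNA1) 19.8-fold.

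A stricter view takes probe sets that crossed the background level on every array. There were 840 (5.76%) below 4 on all early arrays and above 4 on all 8-cell arrays, in 436 genes, and 690 (4.74%) that did the reverse, in 349 genes. Of the 840 that came on, 683 (81.3%) were also below 4 on all in vivo oocyte and zygote arrays. On all morula and blastocyst arrays 495 (58.9%) stayed above 4, and 124 (14.8%) were below 4 again on all of them. By single stage, 65.1% of the 840 were above 4 on all morula and 64.2% on all blastocyst arrays. The shares of all tested were 68.97% and 69.7%. Below 4 on all morula and all blastocyst arrays were 17.98% and 20.1% of the 840, against 20.0% and 18.1% of all tested. After the 8-cell stage the 840 were thus above or below 4 about as often as all tested probe sets. Of the 690 that went off, 440 (63.8%) had been above 4 on all in vivo oocyte and zygote arrays, 404 (58.6%) stayed below 4 on all later arrays, and 105 (15.2%) were above 4 again on all of them. Stage by stage, 65.5% of the 690 were above 4 on all in vivo oocyte and 80.6% on all zygote arrays, against 66.5% and 68.7% of all tested. Below 4 on all morula and all blastocyst arrays were 69.1% and 62.0%, against 20.0% and 18.1% of all tested. Genes that were not below 4 on every 8-cell array could also fall at the 8-cell stage and stand high again later. ACSL3, HSP90AB1 and CTNNA1, whose 8-cell means were 5.58, 6.95 and 8.92, stood in morulae at 12.56, 12.22 and 13.56, within 1 unit of their early means of 12.48, 11.58 and 13.23.

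**Figure D4:**
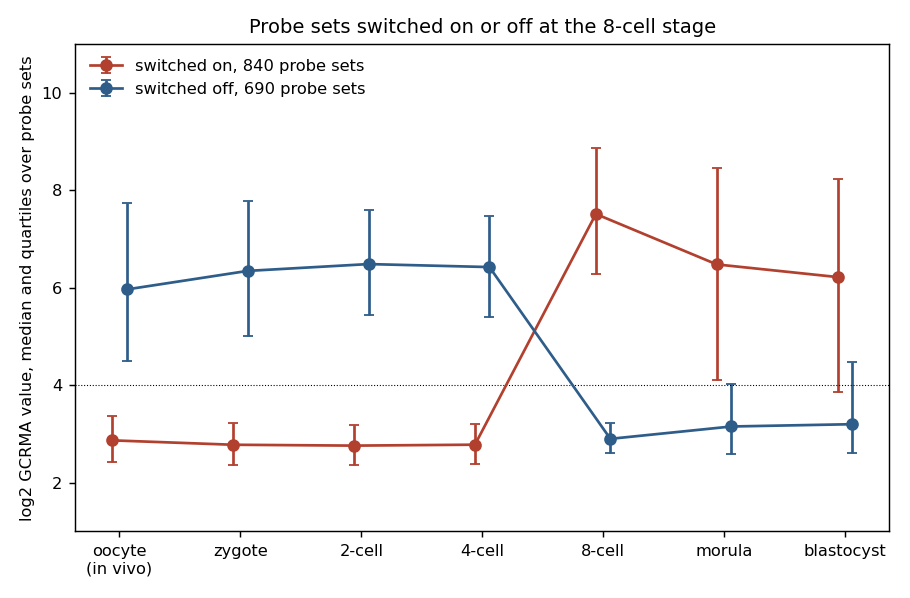
Median log2 GCRMA value, with quartiles over probe sets as bars, of the 840 probe sets switched on (red) and the 690 switched off (blue) at the 8-cell stage, from in vivo oocyte to blastocyst; the dotted line marks 4. The choice fixes the levels at the 2-, 4- and 8-cell stages; at the stages it did not use, the first set stood at 2.87 in oocytes and 6.22 in blastocysts and the second at 5.96 and 3.20.

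A set of 111 probe sets in 68 genes was above 4 on all 8-cell arrays and below 4 on all in vivo oocyte, zygote, 2-cell, 4-cell, morula and blastocyst arrays. The genes named from it were chosen after their values were seen. JAM2, a junctional adhesion molecule, stood at 11.32, 9.67, 8.66 and 11.46 on the 8-cell arrays, at 2.59 ± 0.03 in the early embryos and at 2.66 in morulae, and its other probe set rose as well. GUCY2C, a guanylate cyclase receptor, stood at 10.48, 9.41, 9.89 and 10.52 with 2.29 before and 2.27 in morulae. In both genes every 8-cell array lay more than 5 units above the early and the morula mean. The glucose transporter SLC2A3 stood at 8.10, 9.01, 9.69 and 8.55, with 2.13 before and 2.10 in morulae. The desmosomal cadherin DSC3 stood at 8.72, 8.92, 8.80 and 8.35, with 2.44 before and 2.49 in morulae. PTGFR, the receptor for prostaglandin F2 alpha, stood by its probe set in this set at 8.35, 7.67, 8.08 and 8.73, with 2.37 before and 2.59 in morulae. MYC, given above, had a mean of 10.52 in 8-cell embryos, 2.81 in morulae and 7.09 in blastocysts.

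A comparison that shares no array with this one is the step from in vivo oocyte to zygote, where 428 probe sets (2.94%) passed, 220 (1.51%) up and 208 (1.43%) down. All comparisons use the same spread for a probe set, so calls in different comparisons are not independent. With 8-cell arrays 1 and 4 only, 618 passed from oocyte to zygote. Of the 208 that fell there, 147 (70.7%) rose at the 8-cell stage, against 32.8% of all probe sets, and they are 3.08% of those that rose. Of the 220 that rose there, 171 (77.7%) fell at the 8-cell stage, against 36.6%, and they are 3.20% of those that fell. With array weights 2039 fell and 2229 rose from oocyte to zygote, of which 847 (41.5%) rose and 1181 (53.0%) fell at the 8-cell stage. These weights were 0.34, 0.22 and 52.7 for in vivo oocyte arrays 1 to 3, so the weighted oocyte mean came almost wholly from array 3. With spike-in centring 24 of 34 rose and 45 of 46 fell. By gene, 32 of 64 ribosomal proteins fell from oocyte to zygote and all 32 rose at the 8-cell stage, and of 21 oxidative phosphorylation genes that fell there 17 rose. Of the whole lists 60 of 64 (93.8%) and 40 of 75 (53.3%) rose at the 8-cell stage, so the ribosomal protein count was near the share of its list. RPL12 had a mean of 10.69 in oocytes, 7.11 in zygotes, 8.66 in the early embryos and 13.35 at the 8-cell stage. UQCR10 had means of 9.15, 5.99, 6.74 and 12.07 over the same course. In the other direction GLCE, an epimerase of heparan sulfate synthesis, had means of 3.3, 7.01, 9.12 and 2.91, and the kinase PRKCH 3.31, 6.48, 7.74 and 2.73. From morula to blastocyst, which also shares no array, 1305 probe sets (8.96%) passed, 771 (5.29%) up and 534 (3.66%) down. Of the 771, 292 (37.9%) had fallen at the 8-cell stage and 101 (13.1%) had risen, and of the 534, 184 (34.5%) had risen and 165 (30.9%) had fallen.

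Differences among the 8-cell arrays were counted by the pairs seen in the correlations, which come from these same values. Other ways of pairing the arrays were not counted. Arrays 1 and 4 both lay above arrays 2 and 3 by more than 1 unit in 1914 of 14571 probe sets (13.1%), and both below by more than 1 unit in 1030 (7.07%). In the probe sets that rose the first pair was higher by that margin in 934 and lower in 323. In those that fell the numbers were 456 and 510. The probe sets that passed with the widest range among the 8-cell arrays are given as examples. They were picked for that range on the same arrays, so they are no separate evidence for the pairs. RRAD, a small GTPase, stood at 9.69, 4.66, 2.11 and 8.93. SCGN, a calcium-binding protein, stood at 8.84, 2.25, 5.56 and 8.16. CPNE8, a copine, stood at 9.05, 2.87, 4.00 and 9.01, and KLC1, a kinesin light chain, at 7.51, 4.66, 2.54 and 8.59. All 4 had early means below 2.6, so arrays 1 and 4 were far above the early level and at least 1 of arrays 2 and 3 near it. A second probe set of NOP56 stood at 8.41, 2.25, 3.39 and 7.71, while the brightest probe set of that gene rose on all 4 arrays, to 14.61, 14.70, 14.22 and 14.53. Of genes that fell, the caspase CASP1 stood at 2.62, 5.91, 9.25 and 4.11 after 11.88, 13.32, 12.39 and 12.40 in the early embryos. KDELR3, a retrieval receptor of the endoplasmic reticulum, stood at 4.12, 8.27, 9.46 and 3.31 after 10.22, 10.26, 10.18 and 10.67. NAA25, a subunit of an N-terminal acetyltransferase, did not follow the pairs, at 5.79, 2.00, 8.11 and 5.17. With 8-cell arrays 2 and 3 only, RRAD, CPNE8 and the second probe set of NOP56 did not pass (limma adjusted p = 0.329, 0.214 and 0.195). This follows from their choice, with at least 1 of arrays 2 and 3 near the early level. The ratio of 3′ to 5′ GAPDH probe sets, a sign of RNA quality, was 3.80, 3.46, 2.53 and 4.14 on the log2 scale on the 8-cell arrays, against 3.03, 2.90, 3.0 and 3.05 on the early arrays, and that of EF1A was -2.16, -4.97, -4.26 and -2.83 against -1.02, -2.40, -2.27 and -1.94. The EF1A ratio was lower on arrays 2 and 3 than on arrays 1 and 4. The EIF4E ratio was 8.01, 8.02, 7.04 and 9.05 on the 8-cell and 6.31 to 7.21 on the early arrays, and the PPIB ratio 2.68 to 3.36 and 1.92 to 3.21. The part of RNA quality in these differences was not tested.

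**Figure D5:**
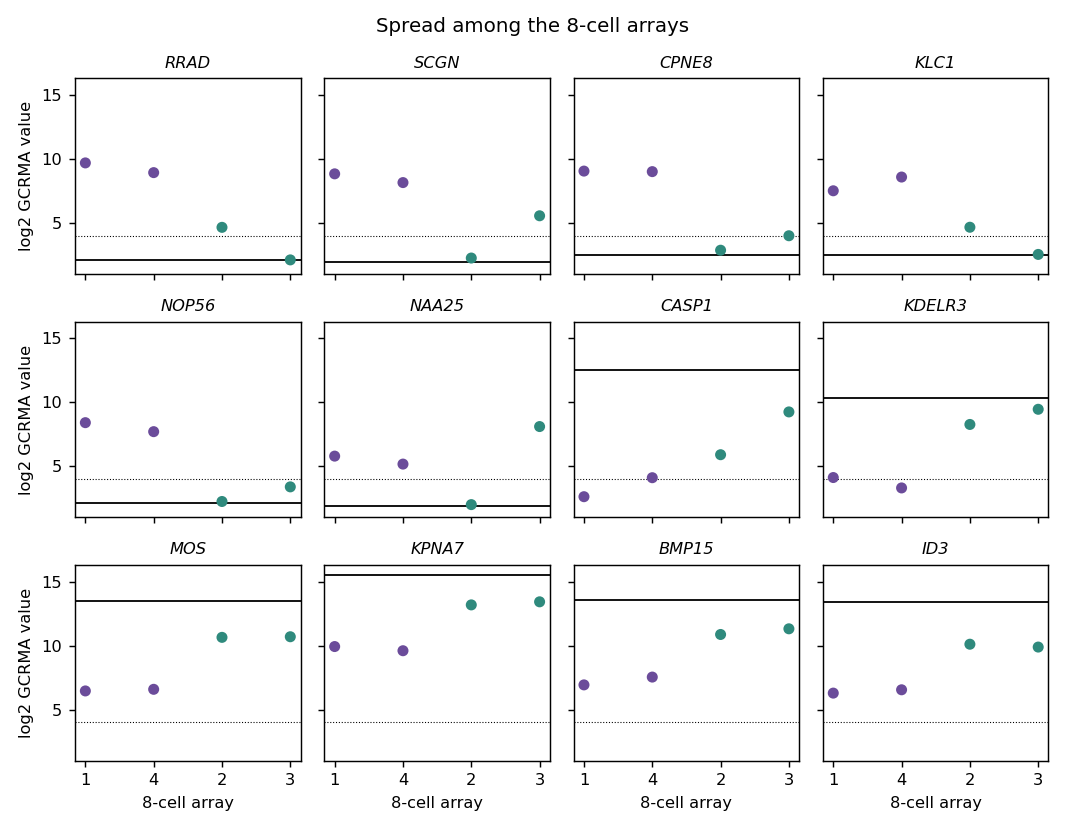
Log2 GCRMA value on each of the 4 eight-cell arrays (arrays 1 and 4 in purple, 2 and 3 in green) for the 8 probe sets with the widest range and for 4 oocyte or early genes; the solid line is the mean of the 4 early arrays and the dotted line marks 4. For MOS, KPNA7, BMP15 and ID3, arrays 2 and 3 lie between the early mean and arrays 1 and 4.

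Markers of cells that could have come along with the embryos were examined. Of 20 blood and leukocyte markers 13 were above 4 on at least 1 early array and 5 on at least 1 8-cell array. 4-cell array 1 carried most of them, with S100A12 at 13.05, SRGN at 12.27, S100A8 at 11.14, ITGB2 at 10.14 and CD68 at 9.81, and 2-cell array 1 carried S100A12 at 8.06 and SRGN at 7.68. Their summed level ran from 59.6 to 140 on the early and 64.1 to 73.6 on the 8-cell arrays (exact permutation test, two-sided p = 0.629, where 4 against 4 arrays cannot go below 0.0286). On the 8-cell arrays CSF1R stood at 10.18, 9.94, 9.30 and 10.13. HBB, a beta globin, stood at 10.79, 7.07, 7.29 and 10.54 after 2.40, 2.44, 2.51 and 2.50, at least 30.3-fold higher (adjusted p = 1.82e-06), while HBA of the alpha globins was below 4 on all 8 arrays. Beta globin genes are near-identical copies, so which of them the probe set reads is uncertain. Of 12 oviduct and uterus markers 7 were above 4 on some early array and 5 on some 8-cell array, with a summed level of 40.6 to 72.3 and 38.5 to 50 (exact permutation p = 0.486). LTF stood at 13.86 on 2-cell array 1 and 10.94 on 8-cell array 3 and below 4 on the others, and OVGP1, the oviduct glycoprotein, at 7.96, 3.63, 3.01 and 7.62 on the 8-cell arrays.

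Of 23 cumulus and granulosa cell markers 11 were above 4 on some early array and 9 on some 8-cell array, and the summed level was lower on the 8-cell arrays, 92.9 to 98.8 against 99.7 to 108 (exact permutation p = 0.0286, the smallest possible). STAR, which moves cholesterol into mitochondria, went from 13.50, 13.72, 12.82 and 13.42 to 9.42, 8.40, 9.42 and 9.20. The matrix protein VCAN went from 7.72, 7.53, 8.04 and 7.68 to 3.94, 3.35, 3.3 and 3.29. The defining granulosa markers FSHR, CYP19A1, INHA, HSD17B1, FOXL2 and LHCGR were below 4 on all 8 arrays, and GJA1 and TNFAIP6 rose, by at least 17.2-fold and at least 7.35-fold. Of 10 sperm and testis markers 2 were above 4 on some early array and 3 on some 8-cell array, with a summed level of 36.8 to 37.8 and 39.1 to 42.3 (exact permutation p = 0.0286), and the protamines PRM1 and PRM2 were below 4 on all 8 arrays. The summed levels were compared in 4 such tests, and over these the Benjamini-Hochberg adjusted p was 0.0571 for the cumulus and sperm lists, 0.629 for oviduct and 0.629 for blood. Without 2-cell array 1 and 4-cell array 1 together, 4211 probe sets rose and 4894 fell, and ribosome biogenesis had 54 of 83 genes up and 10 down.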

How the data were processed

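Biotin-labelled cRNA from pooled embryos was hybridised to Affymetrix Bovine arrays. The deposited values are log2 expression values made with GCRMA 2.0.0, per the submitters' processing notes, which corrects background and sets all arrays to 1 distribution, so values carry no depth and the number of arrays limits the precision. Gene symbols came from the platform annotation: of 24016 probe sets that are not controls 13292 had 1 symbol, 86 several and 10638 none. RefSeq accessions matched 13263 and changed 0 symbols. A symbol was not used for a probe set with several.

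Probe sets over 4 on at least 2 of 23 arrays were tested (14571, in 7081 named genes). limma 3.58.1 in R 4.3.3 fitted 8 group means over all 23 arrays with an intensity trend, so that all groups shared 1 estimate of the spread, and the contrast was the 8-cell mean minus the mean of the 2-cell and 4-cell means. P-values were adjusted by Benjamini-Hochberg over all tested probe sets. Each gene was read from the probe set whose mean over all arrays was highest. Genes were named by rule: among passed probe sets with separate groups, the 8 largest rises and falls above 4 on all 8 arrays, the 8 highest bounds in each direction where the lower group was below 4, the 8 widest ranges among 8-cell arrays, and members of each list. Up to 6 members per list were planned, and for several lists the text names more. The comparison and the gene lists were chosen with earlier results of these data known. Further genes were named for a count or a course outside that rule.

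On simulated data with changes planted in the same 8 arrays, the test recovered 22%, 62%, 88% and 98% of probe sets changed by 1, 2, 3 and 4 log2 units (50 each) and called 5 unchanged ones. Far fewer probe sets were changed there than the 69.4% that passed in the data. This makes the adjusted threshold stricter in the simulation, so its shares do not give the recovery in the data. Alternatives covered filters, variance models, array weights, scaling, a replicate block, arrays left out and averaging all probe sets of a gene. Exact permutation tests used scipy 1.17.1. The in vitro matured oocytes entered the shared spread, the filter on low values and the choice of each gene's probe set, but no comparison.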

Additional observations from a re-analysis of the deposited data

Results flagged for a closer look

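In 13 of the 265 genes or probe sets followed, 1 of the 4 8-cell arrays lay far from the other 3, by the gap relative to the group's range. Chance gives this in about 1 of 20 groups of this size. All values are log2 expression values. Array 2 was the one that stood apart in CTCF at 11.89, below the others. It was also the low one in DNMT1 at 7.83, in PRIM2 at 6.75, in the elongation factor ELL at 4.02 and in the transcription factor ELF1 at 7.71. In DNMT3B array 2 was the high one at 3.03, with all 4 arrays below background. Array 4 was high in GATA6 at 12.69 and in TGFBR1 at 2.67, the latter below background, and low in MRPL12 at 10.39 and RPL26 at 14.31. Array 3 was high in SBDS at 8.84 and in the kinetochore gene CENPO at 6.24, where the other 3 were below background. Array 1 was high in VCAN at 3.94, below background. In each gene that passed, all 4 8-cell arrays lay on the same side of the early arrays, and CTCF did not pass with spike-in centring.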

How the results depend on the processing

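The count of probe sets that passed between 8-cell and early embryos stayed within 1.5 times its main value of 10118 in every setting, from 8999 with a filter over 4 on at least 4 of the 8 arrays to 10280 with no filter, and from 9573 to 10028 with 1 array left out in turn. Centring on the spike-in controls left 9234 past the threshold, and the spread of the 8 arrays alone left 9466. Of 5820 pairs of gene and setting, 5780 kept the direction and the side of the threshold, 25 lost the call, 12 gained one and 3 reversed. The reversals were HSPD1 at -0.63 and SMARCA4 at 0.54 with 8-cell arrays 1 and 4 only, and NFYB at -0.022 with spike-in centring. HSPD1 and SMARCA4 had not passed in the main setting. For NFYB that centring moved the difference by -0.50, as it did for every probe set.

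Other comparisons moved more. For 4-cell against 2-cell embryos the count of 2 became 21 with no filter, 9 with array weights, 1 with either stricter filter, and 0 with spike-in centring, median centring, the replicate block, the spread of the 8 arrays alone, or without 2-cell array 1 and 4-cell array 1 together. It ran from 0 to 84 with 1 array left out, and was 43 without 2-cell array 2 and 84 without 4-cell array 2. For zygotes against in vivo oocytes the count of 428 became 4268 with array weights and 80 with spike-in centring. The weights were 0.34, 0.22 and 52.7 for in vivo oocyte arrays 1 to 3, so the weighted oocyte mean came almost wholly from array 3. With array weights, 847 of 2039 probe sets that fell from oocyte to zygote rose at the 8-cell stage. For blastocysts against morulae the count of 1305 became 1998 with 8-cell arrays 1 and 4 only, 506 with spike-in centring and 759 with a filter over 4 on at least 4 of the 8 arrays. Leaving out 8-cell arrays does not change the morula and blastocyst means, only the spread that all groups share. The other causes were not tested, apart from that filter, which keeps fewer probe sets.

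The probe sets switched on numbered 840 and those switched off 690, and with 8-cell arrays 1 and 4 only there were 1469 and 1196. Of the list counts, ribosomal protein genes that fell went from 1 to 2 with 8-cell arrays 1 and 4 only and to 0 when all probe sets of a gene were averaged, and mitochondrial ribosomal protein genes that fell from 15 to 8 with a change of at least 1 log2 unit required. With the same requirement translation factors that fell went from 6 to 3.

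Replicate numbers were not taken to pair the arrays, since the labels give them no shared origin and deviations of same-numbered early and 8-cell arrays correlated between -0.06 and 0.13. Between 2-cell and 4-cell arrays this correlation was 0.491, and each array correlated best with its own number there, as a hint from the data. With the replicate block 9734 passed, 4504 up and 5230 down. The settings with 8-cell arrays 1 and 4 only or 2 and 3 only were chosen after seeing the data. The search of promoters for motifs was not run. Each early stage had only 2 arrays. On simulated data 22% of changes of 1 log2 unit were recovered. Few probe sets were changed there, against 69.4% that passed in the data, so the share missed in the data is not known.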
